A study of Mus musculus with 8 samples.

Results

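Matrix metalloproteinases and their tissue inhibitors were examined in the gallbladder of obese, leptin-deficient mice given leptin or saline. The group was defined by name as 10 genes, Mmp2, Mmp3, Mmp7, Mmp12, Mmp13, Mmp14, Mmp15, Timp1, Timp2 and Timp3, and every probe set annotated to 1 of these symbols alone was taken. This gave 20 of the 45101 probe sets on the array, for 9 of the 10 genes, out of 18193 genes with a symbol of their own. Mmp15 was matched by no such probe set and was not analysed here. All animals were female B6.V-Lep ob mice, which lack functional leptin because of the ob mutation, so the treated and control groups share that genotype. From 8 weeks of age 12 mice received leptin into the peritoneum each day for 4 weeks at 5 µg per g body weight, and 12 received saline. The mice were 12 weeks old when, fasted overnight, their gallbladders were removed. RNA from 3 gallbladders was pooled for each Affymetrix mouse genome array, giving 4 saline pools (1 to 4) and 4 leptin pools (5 to 8), so differences between single mice within a pool cannot be seen. Values are MAS 5.0 signals, and n = 4 pools in each treatment throughout.

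Matrix metalloproteinases are zinc-dependent enzymes that cut collagens, elastin, laminin and other proteins outside or at the surface of cells. Most are secreted as inactive proenzymes, in which a cysteine of the propeptide blocks the catalytic zinc, while Mmp14 sits in the cell membrane. Tissue inhibitors of metalloproteinases, the TIMPs, bind the active site of the mature enzymes. Timp2 has a second role, since a complex of Timp2 and Mmp14 at the cell surface captures and activates the proenzyme of Mmp2. Timp3 differs from the other inhibitors in that it binds to the extracellular matrix.

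Leptin changed the signal of 3 genes of this group. Mmp7, an epithelial metalloproteinase, fell by 35.1% in mean signal. The inhibitor Timp2 rose on 3 of 5 tested probe sets, by 1.35-fold to 1.49-fold, and the inhibitor Timp3 fell on 1 of 4. Mmp2, Mmp3, Mmp14 and Timp1 were not called, and Mmp12 and Mmp13 were too dim to be tested. Of the 17 tested probe sets, 5 passed limma's test at an adjusted p under 0.05 (29.4%), against 6.93% of all 22519 tested probe sets. By direction, 3 were higher with leptin and 2 lower, against backgrounds of 3.54% higher and 3.39% lower. With each gene read from its brightest probe set, 3 of 7 tested genes were called, 1 higher and 2 lower, against 8.27% of 11719 genes, with 4.29% higher and 3.98% lower. With the actin 3' to 5' ratio of each array as a covariate, limma called 0 of the 17, against 654 of all 22519. In that fit 6 of the 17 had an unadjusted p under 0.05, a threshold for which no share of all probe sets is given. With 1 pool left out limma called 1 to 4, and 1 without saline 4, leptin 5, leptin 6 or leptin 8. With arrays centred on their median it called 0 higher and 5 lower, against 406 higher and 3586 lower among all 22519. The probe sets of 1 gene are not independent of each other, and 9 of the 17 tested belong to Timp2 and Timp3. The median log2 fold change of the 17 was 0.18, against 0.039 for all tested probe sets. Their median absolute log2 fold change was 0.43, against 0.23.

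**Figure D1:**
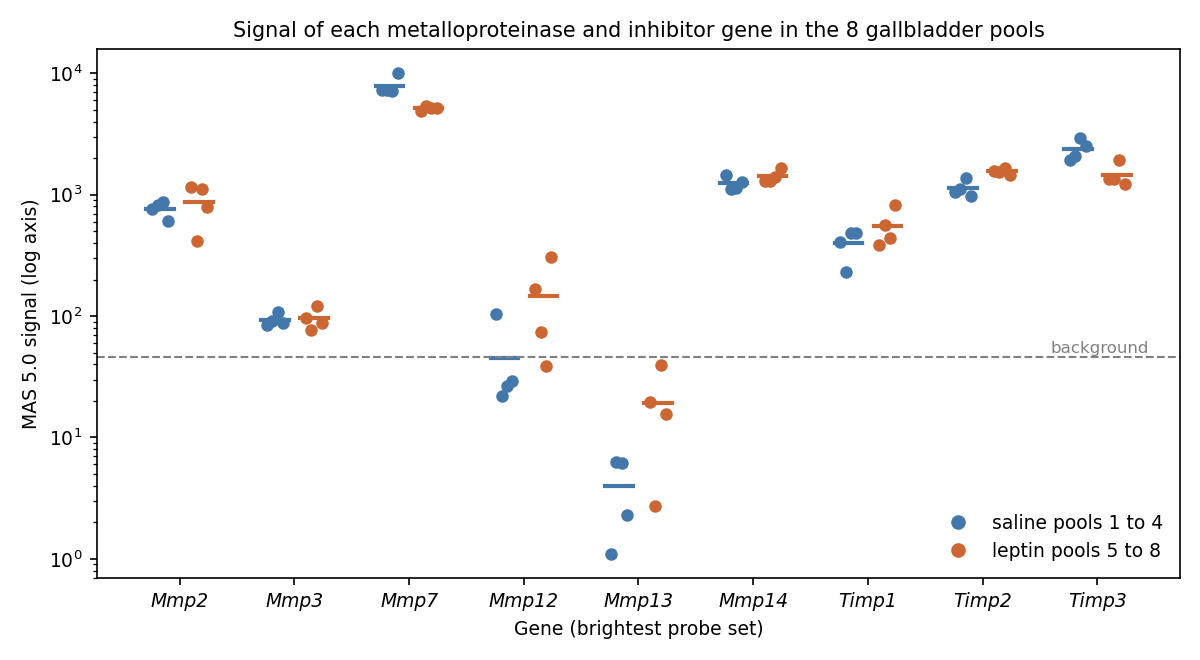
MAS 5.0 signal (log axis) of the brightest probe set of each of 9 genes in the 4 saline pools (blue) and the 4 leptin pools (orange), with bars at group means and a dashed line at the background level of 46.0. The Mmp7 leptin pools (4878.0 to 5409.3) all lie under its saline pools (7097.1 to 10014.7), the Timp2 leptin pools all lie above its saline pools, and Mmp13 lies under background everywhere; heights of different genes are not comparable, since probe sets differ in brightness for the same amount of RNA.

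General measures of the arrays bear on these values. The median signal was 81.8 ± 4.18 (SD) in saline pools and 98.9 ± 5.74 in leptin pools (exact permutation p = 0.0286, adjusted 0.0572 over 4 measures). The smallest p this design allows is 0.0286. The ratio of the 3' to the 5' actin probe sets, a measure of RNA integrity, was 1.60 ± 0.0882 with saline and 1.89 ± 0.207 with leptin (exact permutation p = 0.0571, adjusted 0.0761). The same ratio for Gapdh was 0.813 ± 0.0409 with saline and 0.818 ± 0.0248 with leptin (exact permutation p = 0.857, adjusted 0.857). The part of the median signal in the results was not tested beyond the fits with arrays centred on their median. That of the actin ratio was not tested beyond the fits with it as a covariate, and that of the share above background was not tested. In the fits with the actin covariate every called gene named below lost its call, except Adam8, Tyrobp, Laptm5, Itgam, S100a8, S100a9, Ltf, Ighm, Jchain, Mzb1, Cidea and Cidec. The actin ratio ran from 1.5 to 1.68 in saline pools and from 1.67 to 2.17 in leptin pools. It therefore cannot be fully separated from treatment. Some estimates moved little, as for Ets1 (0.91 to 0.93), and others more, as for Krt7 (-0.96 to -0.46). A lost call in these fits does not by itself mean a smaller difference. Over all tested probe sets 798 were called higher and 763 lower, and with each array centred on its median 406 and 3586. That centring moved the median log2 fold change of all tested probe sets from 0.04 to -0.21. All 10 gallbladder epithelium markers on the array were above background in at least 1 pool, as were the 9 smooth muscle markers. Transcripts of hepatocytes were also present, with summed signals of 7 markers between 66514.1 and 105228.7 in saline pools and between 82743.0 and 99513.6 in leptin pools.

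The sequences upstream of the called genes are shown as a description of their base composition and motifs. RefSeq (GRCm38.p6) gave promoter entries for 9 of the 10 genes; Mmp2 had none in the table used. In the 250 bases before the start site, 3 motifs were searched on both strands: the AP-1 motif TGAGTCA, the TATA motif TATAAA and the GC box GGGCGG. Capitals mark the matches. Mmp7 has 2 start sites in the table. The window of the first lies at chr9:7691840-7692089 on the plus strand, that of Timp2 at chr11:118355412-118355661 on the minus strand and that of Timp3 at chr10:86300162-86300411 on the plus strand.
Mmp7: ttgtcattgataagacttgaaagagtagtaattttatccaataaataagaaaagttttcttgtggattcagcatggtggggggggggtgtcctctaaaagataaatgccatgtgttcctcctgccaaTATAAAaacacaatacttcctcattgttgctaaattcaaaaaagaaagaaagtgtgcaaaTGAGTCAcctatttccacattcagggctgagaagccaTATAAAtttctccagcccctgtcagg
Timp2: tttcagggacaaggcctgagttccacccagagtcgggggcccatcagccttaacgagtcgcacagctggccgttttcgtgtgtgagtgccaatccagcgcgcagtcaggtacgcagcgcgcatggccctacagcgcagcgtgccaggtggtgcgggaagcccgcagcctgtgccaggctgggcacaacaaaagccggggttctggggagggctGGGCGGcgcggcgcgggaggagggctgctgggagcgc
Timp3: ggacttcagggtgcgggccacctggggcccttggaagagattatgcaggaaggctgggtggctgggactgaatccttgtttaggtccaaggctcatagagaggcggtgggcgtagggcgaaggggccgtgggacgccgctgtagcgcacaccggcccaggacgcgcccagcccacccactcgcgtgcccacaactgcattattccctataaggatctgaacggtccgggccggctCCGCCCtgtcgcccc

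The first Mmp7 window holds TGAGTCA from 63 to 57 bases before the start and TATAAA at 123 to 118 and at 26 to 21 bases, with a GC content of 38.0%. The window of the second Mmp7 start site, at chr9:7692091-7692340, has a GC content of 53.2% and holds none of the 3 motifs. The Timp2 and Timp3 windows have a GC content of 68.0% and 65.6% and each hold 1 GC box, at 37 to 32 bases and, on the opposite strand, at 15 to 10 bases. Across the group, AP-1 matches lay upstream of 4 genes, Mmp3, Mmp7, Mmp12 and Mmp13, and GC boxes upstream of the 5 others with an entry, Mmp14, Mmp15, Timp1, Timp2 and Timp3. For Mmp12 the match lay before the second of its start sites in the table. Of all 32851 promoter windows of this length, 4.46% hold the AP-1 motif, 12.4% the TATA motif and 32.7% the GC box. A match is a description of the letters and not a measured binding site. The relation of these motifs to the changes with leptin was not tested.

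Mmp7, also called matrilysin, is a small metalloproteinase made mainly by glandular epithelial cells, where it cuts matrix proteins, cell-surface ligands and defensin precursors. Its signal was 7334.8, 7312.0, 7097.1 and 10014.7 in saline pools 1 to 4. In leptin pools 5 to 8 it was 4878.0, 5409.3, 5156.5 and 5159.8. The groups did not overlap, the leptin pools lay close together, and saline 4 stood above the other saline pools. Pools did not overlap in 15.5% of all tested probe sets, and in 7.40% with leptin lower. Mean signal was 7939.7 ± 1387.5 (SD) with saline and 5150.9 ± 217.1 with leptin. The log2 fold change was -0.61 ± 0.11 (SE; 95% interval -0.85 to -0.36), with a limma adjusted p of 0.0072. The call held without each of the 8 pools in turn, with adjusted p between 0.0077 and 0.0253, and the log2 fold change without saline 4 was -0.49. The fit with the actin covariate gave -0.50 and ended the call (adjusted p = 0.129).

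Keratin genes of the gallbladder epithelium list fell, as did Mmp7, whereas 6 of the 10 markers were not called. The summed signal of the list lay between 40715.6 and 50704.8 in saline pools and between 34138.5 and 38519.7 in all 4 leptin pools. In this list 4 of 10 tested markers fell and 0 rose, against 3.98% of genes called lower, and the median log2 fold change was -0.26. The keratins Krt7 and Krt8, filament proteins of simple epithelia, fell by 0.96 ± 0.16 (SE) and 0.58 ± 0.10 on the log2 scale, and Krt20 was at -1.83 ± 0.30 (adjusted p = 0.0033). With the actin covariate 0 of the 10 were called, and Krt7 was at -0.46 (adjusted p = 0.140), Krt8 at -0.42 (0.132) and Krt20 at -1.18 (0.131). The surface adhesion genes Epcam (-0.01, adjusted p = 0.982) and Cdh1 (-0.17, adjusted p = 0.401) and the mucin gene Muc1 (0.03, adjusted p = 0.897) were not called. No marker of the list was under background in every pool. In bulk RNA, fewer cells of a type and less RNA per cell cannot be told apart, and the part of epithelial content in the fall of Mmp7 was not tested.

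**Figure D2:**
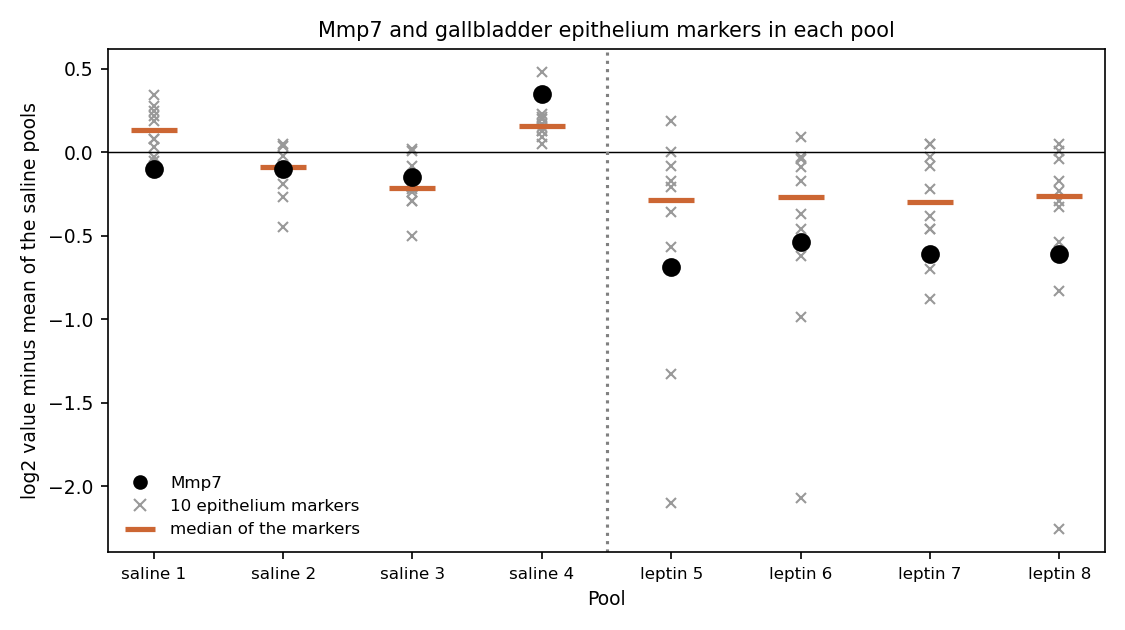
Log2 value minus the mean of the saline pools for Mmp7 (black circles) and 10 gallbladder epithelium markers (grey crosses) in each pool, with the median of the markers as orange bars. Mmp7 lies between -0.69 and -0.54 in the leptin pools, where the marker median lies between -0.30 and -0.26.

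Across tested genes, the 3 whose log2 values followed Mmp7 most closely over the 8 pools were Nolc1, Nhp2 and Uqcc2, with Pearson's r of 0.992, 0.984 and 0.984. After the mean of each treatment was removed, r was 0.968, 0.945 and 0.923. These are descriptions over pools that share scaling and the treatment difference. Genes chosen this way tend to share the direction of Mmp7, so their fall is no separate result. Each of the 3 fell, by 0.86 ± 0.18 (SE), 0.76 ± 0.16 and 0.62 ± 0.14 on the log2 scale (adjusted p up to 0.0170). With the actin covariate none of the 3 was called (adjusted p from 0.165 to 0.226).

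Mmp7 lies at 1 end of a row of 10 metalloproteinase genes on mouse chromosome 9, with Mmp13 at the other end and Mmp12, Mmp1b, Mmp3, Mmp1a, Mmp10, Mmp8, Mmp27 and Mmp20 between them. The other genes of the row were dim or were not called, and the difference between them and Mmp7 was not tested. Mmp13, Mmp1b, Mmp1a and Mmp10 lay under background in all 8 pools. Mmp3 and the neutrophil collagenase gene Mmp8 were tested and not called, and Mmp27 was not analysed here. Mmp20, an enamel protease gene, was not tested and had a log2 difference of -0.88 ± 0.48 (SE).

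Mmp3, or stromelysin 1, is a broad-spectrum protease of fibroblasts that can also activate other proenzymes. It measured 84.6, 91.3, 109.1 and 87.5 with saline and 96.9, 77.2, 120.2 and 88.2 with leptin, so the groups overlapped fully. The log2 fold change was 0.03 ± 0.24 (95% interval -0.48 to 0.53, adjusted p = 0.963).

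Mmp12, the elastase of macrophages, was under background in 3 of 4 saline pools and in 1 leptin pool. The saline signals were 104.3, 22.1, 26.6 and 29.1, and the leptin signals 166.7, 73.9, 39.1 and 309.4. The highest values were in leptin 8 and leptin 5, but saline 1 exceeded leptin 6 and leptin 7. In a fit of all probe sets without the filter on dim ones, the log2 difference was 1.40 ± 0.59 (adjusted p = 0.262). Macrophage markers were higher in all 4 leptin pools than in any saline pool, with summed signals of 6672.9 to 8270.5 with saline and 13981.3 to 16890.9 with leptin. Of 14 tested macrophage markers 12 rose and 0 fell, with a median log2 fold change of 1.07 against 0.02 for all tested genes. They included Tyrobp, an adaptor of activating receptors (1.89 ± 0.13), Laptm5 (1.82 ± 0.15) and the integrin gene Itgam (1.53 ± 0.21). With the actin covariate 6 of the 14 were called. The scavenger receptor gene Cd163 was at 0.01 ± 0.29 (adjusted p = 0.987). The relation of macrophage content to Mmp12 was not tested.

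Mmp13, a collagenase of chondrocytes and activated stromal cells, had signals of 1.1, 6.3, 6.2 and 2.3 with saline and 19.7, 2.7, 39.6 and 15.5 with leptin. All 8 pools were under the background level of 46.0, so no fold is given. It was not tested with the filter on, and without the filter its adjusted p was 0.246.

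The membrane protease Mmp14 and its substrate Mmp2 were measured well above background and were not called. On its brightest probe set Mmp14 measured 1456.0, 1120.1, 1138.5 and 1263.8 with saline and 1302.5, 1301.4, 1411.2 and 1675.4 with leptin. Here 1 leptin pool, leptin 8, exceeded every saline pool, and the log2 fold change was 0.19 ± 0.12 (95% interval -0.08 to 0.46, adjusted p = 0.382). The other Mmp14 probe sets gave -0.23 ± 0.17 and 0.18 ± 0.22 (adjusted p = 0.464 and 0.666). The sign therefore differed between probe sets of this gene.

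Mmp2, gelatinase A, cuts denatured and basement membrane collagen. Its brightest probe set measured 764.2, 824.7, 870.9 and 610.0 with saline and 1156.4, 414.9, 1124.2 and 797.2 with leptin. Leptin 6 was the lowest and leptin 5 and leptin 7 the highest of all pools, and the spread was larger with leptin (SD 345.9) than with saline (SD 113.7). The log2 fold change was 0.09 ± 0.26 (95% interval -0.48 to 0.66, adjusted p = 0.873). On the second probe set leptin 6 was again the lowest leptin pool, at 373.9, with a log2 fold change of 0.28 ± 0.20 (adjusted p = 0.416).

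Timp1, an inducible secreted inhibitor, measured 404.6, 232.2, 487.0 and 486.9 with saline and 385.6, 561.9, 437.5 and 824.5 with leptin. Leptin 6 and leptin 8 exceeded every saline pool and leptin 5 and leptin 7 lay within the saline range. The log2 fold change of 0.44 ± 0.26 did not pass the test (95% interval -0.12 to 1.00, adjusted p = 0.328).

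Timp2 was higher with leptin on every tested probe set. On the brightest it measured 1054.6, 1114.9, 1380.2 and 982.5 with saline and 1575.1, 1535.6, 1663.9 and 1448.7 with leptin. All 4 leptin pools exceeded the highest saline pool, saline 3. Mean signal was 1133.0 ± 173.4 (SD) with saline and 1555.8 ± 89.3 with leptin, a log2 fold change of 0.46 ± 0.12 (SE; limma adjusted p = 0.0374). The groups did not overlap on 3 of the 5 tested probe sets, against a background of 8.10% with leptin higher, and these were the 3 that were called.

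A dimmer called probe set of Timp2, 1420924_at, measured 278.0, 227.1, 277.7 and 197.2 with saline and 355.0, 337.3, 440.1 and 338.6 with leptin, a log2 fold change of 0.58 ± 0.16 (adjusted p = 0.0480). The third called, 1460287_at, gave 0.43 ± 0.12 (adjusted p = 0.0490). The other tested probe sets, at 0.47 ± 0.16 and 0.43 ± 0.17, were not called (adjusted p = 0.103 and 0.140). The sixth probe set, 1437081_at, was under background in all 8 pools. Over the 5 tested probe sets the log2 fold changes ran from 0.43 to 0.58, so they gave like estimates of the same RNA.

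Single Timp2 probe sets lay near the threshold. Each of the 3 called ones was called in 1 of 8 fits that left out a pool: 1433662_s_at without saline 3 (adjusted p = 0.0155), 1460287_at without saline 3 (0.0297) and 1420924_at without saline 1 (0.0494). In the other leave-out fits the adjusted p ranged up to 0.128, while the log2 fold change stayed between 0.37 and 0.64. None of the 3 was called by limma with the actin covariate, median centring, no filter or no mean-variance trend (adjusted p from 0.0526 to 0.416), and 1420924_at was also lost under quantile (0.0784) and loess scaling (0.0702). The mean of the 5 tested probe sets, refitted over genes and chosen as a check after the data were seen, was 0.47 ± 0.10 higher with leptin on the log2 scale (adjusted p = 0.0179). Of genes read this way, 8.47% were called. Its call held without each of the 8 pools in turn, with adjusted p from 0.0211 to 0.0485. It was lost with the actin covariate (0.45, adjusted p = 0.142) and with arrays centred on their median (0.22, adjusted p = 0.182). That centring shifts all genes downwards.

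**Figure D3:**
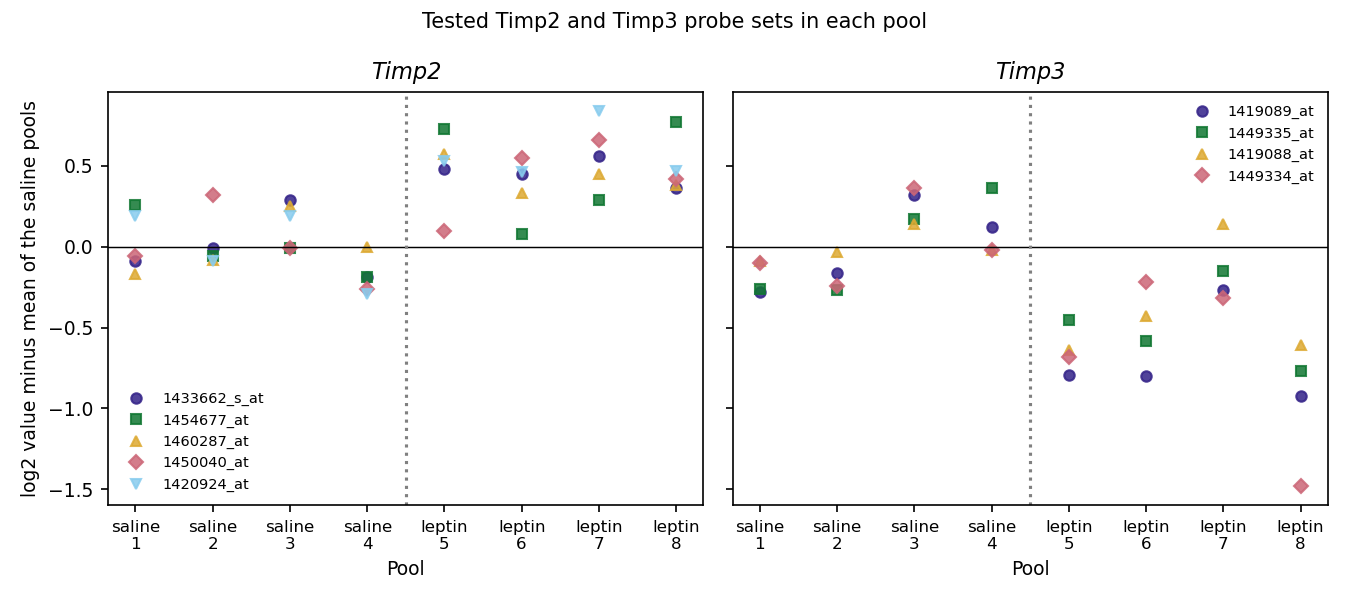
Log2 value minus the mean of the saline pools for the 5 tested Timp2 probe sets (left) and the 4 tested Timp3 probe sets (right) in each pool; each symbol is 1 probe set. The Timp2 points of the leptin pools lie between 0.08 and 0.84, and the Timp3 points between -1.48 and 0.14. For Timp3 leptin 7 is nearest to the saline pools, except on 1449334_at, where leptin 6 is.

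Timp3, the matrix-bound inhibitor, was lower with leptin on all 4 of its probe sets, of which 1 was called. That probe set, also its brightest, measured 1923.5, 2086.3, 2927.6 and 2540.4 with saline and 1343.8, 1343.3, 1930.6 and 1228.1 with leptin. The groups met at their edges, since leptin 7 was just above saline 1, and the other 3 leptin pools lay below every saline pool. Mean signal was 2369.4 ± 454.5 (SD) with saline and 1461.4 ± 317.5 with leptin. The log2 fold change was -0.70 ± 0.16 (95% interval -1.05 to -0.35, limma adjusted p = 0.0226).

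The other Timp3 probe sets gave log2 fold changes of -0.49 ± 0.17, -0.39 ± 0.17 and -0.68 ± 0.24 (adjusted p = 0.0982, 0.180 and 0.113). On each of the 4, exactly 3 leptin pools lay below the lowest saline pool. The remaining pool was leptin 7 on 3 probe sets and leptin 6 on 1449334_at. Their mean, at -0.56 ± 0.17, was not called (adjusted p = 0.0582). Without leptin 7 it was -0.70 (adjusted p = 0.0170), and without any other pool it was not called, with adjusted p from 0.0623 to 0.131. The call of the brightest probe set held without saline 1, saline 2 or leptin 7. It was lost without saline 3 (adjusted p = 0.0596), saline 4 (0.0674), leptin 5 (0.0576), leptin 6 (0.0687) or leptin 8 (0.0679). It was also lost under quantile (0.0710) and loess scaling (0.0644) with no mean-variance trend (0.0660) and with the actin covariate (0.229), in each case with a negative log2 fold change.

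**Figure D4:**
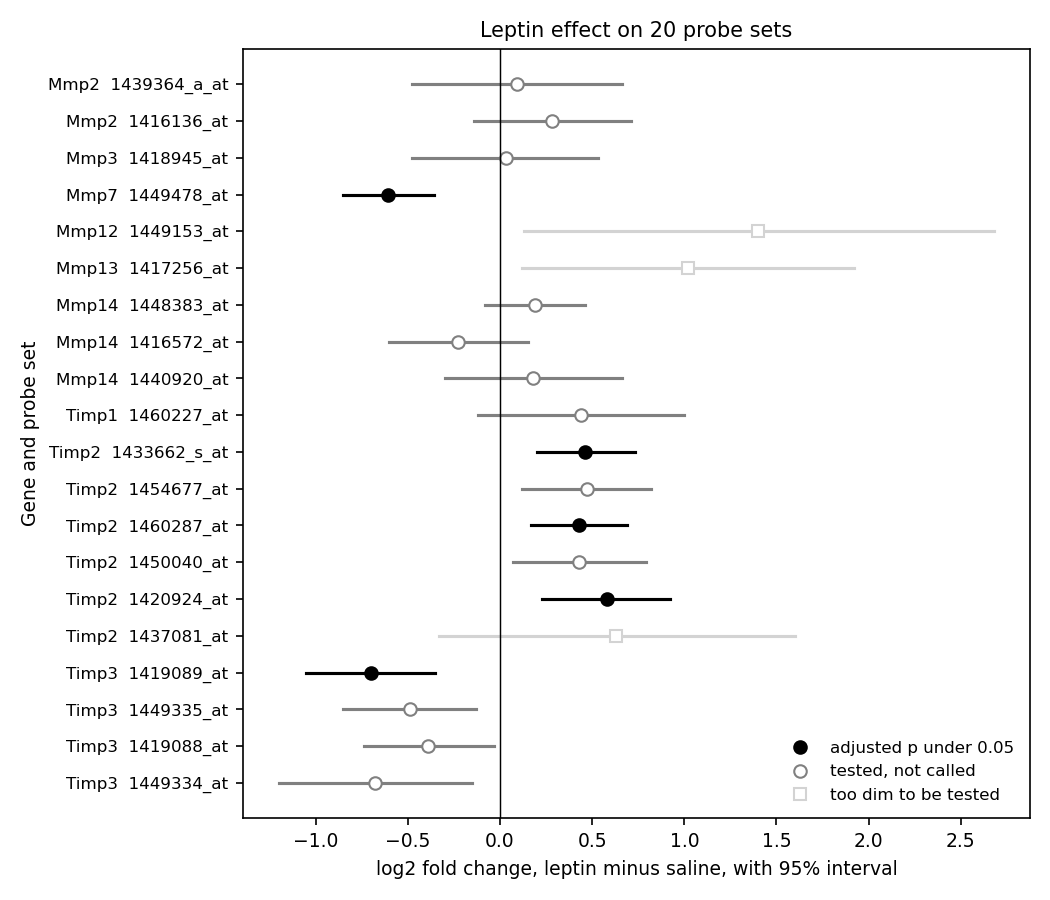
Fitted log2 fold change, leptin minus saline, of all 20 probe sets, with 95% intervals; filled circles passed an adjusted p of 0.05, open circles were tested and not called, and squares were too dim to be tested (values from the fit without the filter). The Timp2 points run from 0.43 to 0.63 and the Timp3 points from -0.70 to -0.39, and Mmp7 stands at -0.61. The Mmp13 point and interval come from signals under background in every pool and are not read as a change.

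The values of both inhibitors can be set side by side pool by pool. The mean Timp2 value over its tested probe sets, relative to the saline mean, was 0.48, 0.37, 0.56 and 0.48 in leptin pools 5 to 8, and between -0.19 and 0.14 in saline pools. The mean Timp3 value was -0.64, -0.51, -0.15 and -0.95 in the same leptin pools, and between -0.18 and 0.25 in saline pools. With arrays centred on their median, all 4 Timp3 probe sets were called lower (adjusted p from 0.0013 to 0.0139) and 0 of the Timp2 probe sets higher. That centring called 3586 of all 22519 tested probe sets lower and 406 higher, and moved their median log2 fold change to -0.21. Leptin 7 had the highest value of the leptin pools for both genes.

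Other genes followed the inhibitors over the 8 pools. For the brightest Timp2 probe set these were Pla2g7, which encodes a lipase that breaks down platelet-activating factor, the interleukin 7 receptor gene Il7r and Igfals (Pearson's r over 8 pools 0.980, 0.978 and 0.974). After the mean of each treatment was removed, r was 0.922, 0.932 and 0.896. Each rose, by 1.11 ± 0.23 (SE), 1.10 ± 0.25 and 1.46 ± 0.28 on the log2 scale. For Timp3 the 3 closest genes were Rexo2, Ier3 and Mcm2 (r of 0.968, 0.967 and 0.963). With the treatment means removed r was 0.905, 0.909 and 0.898. Both sets were chosen by correlations that include the treatment difference, so a direction shared with the inhibitor is no separate result. Ier3, a stress-induced gene, and Mcm2, of the replication helicase, fell by 0.85 ± 0.16 and 1.89 ± 0.28, and Rexo2 was not called (-0.33 ± 0.11, adjusted p = 0.0983). With the actin covariate the called genes of both sets lost their calls (adjusted p from 0.0521 to 0.224). Il7r also lost its call under quantile (0.0567) and loess scaling (0.0554), with no filter (0.0562) and without saline 4 (0.0575) or leptin 5 (0.0534).

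Some TIMP genes overlap other genes in RefSeq. Timp1 overlaps Syn1 and Timp3 overlaps Syn3, both of which encode synaptic vesicle proteins. Syn3 was at 0.56 ± 0.29 (adjusted p = 0.275), opposite in sign to Timp3, and Syn1 at 0.37 ± 0.21 (adjusted p = 0.310). Cep295nl, which overlaps Timp2, was too dim to be tested.

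Stromal cells are common sources of TIMPs. Of 12 fibroblast markers limma called 1 higher and 0 lower, against 4.29% and 3.98% of all tested genes. In this list 7 had an unadjusted p under 0.05, all of them with positive log2 fold changes. No share of all genes is given for that threshold, so such counts have no background here. The median log2 fold change of the 12 was 0.38, and their summed signal was higher in 3 of 4 leptin pools than in any saline pool. The called gene was Dpt (0.63 ± 0.12), which encodes a matrix protein. Of 9 smooth muscle markers 1 rose, Smtn (0.65 ± 0.14), and 1 fell, Actg2 (-0.58 ± 0.14), with a median of -0.17. In limma 4 of the 9 had an unadjusted p under 0.05. Dpt and Smtn lost their calls with median centring (adjusted p = 0.0665 and 0.0789) and the actin covariate (0.0955 and 0.0883). Actg2 lost its call under quantile (0.0822) and loess scaling (0.103), with no filter (0.0643), no mean-variance trend (0.0858) and the actin covariate (-0.32, 0.399). It was also lost without saline 2, saline 4, leptin 5, leptin 6 or leptin 8 (0.0701 to 0.0861). Endothelium markers gave 0 limma calls among 7, and 1, Tek, at an unadjusted p under 0.05. Of 7 adipocyte markers 2 fell, Cidea (-2.41 ± 0.41) and Cidec (-2.03 ± 0.26), both lipid droplet genes, and 5 had an unadjusted limma p under 0.05. In the mesothelium list 0 of 4 were called (2 at an unadjusted p under 0.05, Krt19 at -0.40 and Lrrn4 at 0.65). Its summed signal was lower in all 4 leptin pools and consisted mostly of Krt19 (mean 8154.9 with saline and 6186.2 with leptin), which the epithelium list also holds. The part of any of these cells in the Timp2 and Timp3 values was not tested.

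The wider protease system was read from lists of related genes. For these lists, 4.29% of all tested genes called higher and 3.98% called lower are the background. Among 16 other metalloproteinase genes, 12 were on the array, 6 were tested and 0 were called by limma, with 1 at an unadjusted p under 0.05. The lowest adjusted p was that of Mmp9, gelatinase B of neutrophils and macrophages, whose signal was 56.2 to 96.1 with saline and 109.9 to 221.8 with leptin. These ranges did not overlap, and its log2 fold change of 0.91 ± 0.27 missed the threshold (adjusted p = 0.0587). Mmp9 passed only without leptin 7 (1.05, adjusted p = 0.0366) and with array weights (1.01, 0.0219). It did not pass with the actin covariate (0.63, adjusted p = 0.429), under quantile (0.201) or loess scaling (0.177) or with median centring (0.128). Of the neutrophil markers 4 of 5 tested rose, with a median of 2.87, including the calcium-binding protein genes S100a8 (3.07 ± 0.20) and S100a9 (2.87 ± 0.24), and Ltf (2.90 ± 0.29). The granule gene Ngp was at 0.00 ± 0.22 (adjusted p = 0.999), and Camp and Cxcr2 were under background in all 8 pools. Their summed signal ran from 736.8 to 1271.7 with saline and from 3881.1 to 6587.1 with leptin, and their part in the Mmp9 values was not tested.

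Among other inhibitors and clearance proteins, 0 of 6 tested genes were called by limma, with 1 at an unadjusted p under 0.05. The membrane-anchored inhibitor gene Reck was at 0.45 ± 0.20 (adjusted p = 0.205), Timp4 at -0.59 ± 0.48 (0.494) and the clearance receptor gene Lrp1 at 0.20 ± 0.14 (0.406). Of 14 ADAM and ADAMTS proteases, 1 rose: Adam8, a protease of leukocytes, at 1.36 ± 0.24 (adjusted p = 0.0054). Its relative Adamts1, a proteoglycan-cutting protease, was at -0.78 ± 0.24 and was not called (0.0679). In the plasminogen system, which can activate proenzymes of metalloproteinases, 0 of 4 tested genes were called, with 1 at an unadjusted p under 0.05. Across these 3 lists the median log2 fold changes were -0.02, 0.20 and 0.04, against 0.02 for all tested genes.

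Of 9 convertases and cell-surface partners, 1 fell: Cav1, the coat protein gene of caveolae, at -0.56 ± 0.11 (adjusted p = 0.0125). Furin, the convertase that removes the Mmp14 propeptide, was at 0.01 ± 0.13 (adjusted p = 0.986), and Bsg, which encodes the inducer of metalloproteinases known as basigin, at -0.14 ± 0.09 (0.376). Cav1 lost its call under quantile (0.0604) and loess scaling (0.0529) and with the actin covariate (0.0686).

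Metalloproteinases act on matrix proteins, whose genes were read as substrates. Of 21 matrix genes 2 rose and 1 fell, against 4.29% of all tested genes called higher and 3.98% lower. The median log2 fold change of the 21 was 0.18, and 8 of them had an unadjusted limma p under 0.05. Col4a1, a chain of basement membrane collagen, fell by 0.46 ± 0.096 (SE; adjusted p = 0.0126). The small proteoglycan gene Bgn rose by 0.46 ± 0.11 (0.0291) and the microfibrillar collagen gene Col6a2 by 0.45 ± 0.13 (0.0484). The fibrillar collagen genes Col1a1 (0.36 ± 0.14) and Col3a1 (0.31 ± 0.10) were not called (0.131 and 0.0831). Bgn lost its call without saline 1 (0.0588), saline 4 (0.0747), leptin 5 (0.0777) or leptin 7 (0.0635), and Col6a2 without any pool but leptin 5 (up to 0.121). With the actin covariate and with no mean-variance trend all 3 calls were lost (0.0597 to 0.295). Under quantile and loess scaling that of Col4a1 was lost (0.0694 and 0.0783), and with median centring or no filter those of Bgn and Col6a2 (0.0595 to 0.278).

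Among inducers and transcription factors of metalloproteinase genes, limma called 2 of 15 higher and 0 lower, against 4.29% and 3.98% of all tested genes. Of the 15, 7 had an unadjusted limma p under 0.05. The called genes were Il1b, the interleukin 1 beta gene, at 1.32 ± 0.20 (adjusted p = 0.0018) and the transcription factor gene Ets1 at 0.91 ± 0.17 (0.0068). Both lost their calls with the actin covariate (0.0911 and 0.0735). The AP-1 subunit genes were not called: Fos was at -0.72 ± 0.24 (0.0911), Junb at -0.37 ± 0.15 (0.162) and Jun at 0.43 ± 0.15 (0.107). The median of this list was 0.07.

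The summed signals of the other leukocyte lists were also higher in all 4 leptin pools than in any saline pool. Of the tested B and plasma cell markers 4 of 5 rose, and of the mast cell markers 3 of 5, with medians of 1.47 and 0.63. The largest B and plasma cell changes were those of Ighm (6.76 ± 0.33), Jchain (5.77 ± 0.28) and Mzb1 (1.47 ± 0.18). The B and plasma cell count stayed at 4 with the actin covariate. The mast cell count was 0 under quantile and loess scaling, with median centring, no filter or the actin covariate, and 0 to 2 without a pool. The called mast cell genes were Kit (0.82 ± 0.19), Cpa3 (0.66 ± 0.16) and Cma1 (0.63 ± 0.18), with adjusted p from 0.149 to 0.259 in the fit with the actin covariate. Of 7 T and NK cell markers on the array only 2 were tested. Limma called 0 of them, with 2 at an unadjusted p under 0.05 and a median of 0.75. The filter takes the mean over all 8 pools, and Klrd1 (mean 65.4 with saline, 135.4 with leptin) passed it through its leptin values. Jchain (60.2 with saline) and Itgam (62.1) passed it in the same way. The counts and medians of these lists therefore cover genes picked partly by their leptin values. The hepatocyte list had 1 called gene of 7, Apoa1 (0.70 ± 0.17), with a median of 0.04. Apoa1 lost its call with the actin covariate (0.22, adjusted p = 0.549), median centring (0.0774), no filter (0.0755) and no mean-variance trend (0.0820). It was also lost without saline 1, saline 4, leptin 5, leptin 6 or leptin 8 (0.0564 to 0.0788).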

How the data were processed

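The authors deposited 1 linear intensity per probe set and array, computed with MAS5 according to the submitters' processing notes. The MAS5 version, detection calls and scan dates were not used here. The 2% trimmed mean of every array lay between 250.001 and 250.0015, so rescaling to it changed nearly nothing. Control probe sets (64) were left out, a pseudocount of 8.2 (10th percentile of the signals) was added before log2, which understates changes of dim genes, and the 22519 of 45037 probe sets at or above the median were tested. This filter uses the mean over all 8 pools, so a gene high in 1 treatment alone can pass it, as Mmp9 did. The treatments were compared with limma 3.58.1 under R 4.3.3 (lmFit, then eBayes with trend). Tests were two-sided, and p-values were adjusted by Benjamini-Hochberg across every tested probe set, at a threshold of 0.05. The fit was tested on simulated data. Log2 fold changes are leptin minus saline on the log2(signal + 8.2) scale, with SE.

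Gene names came from the platform annotation, in which 34958 had 1 symbol, 932 several and 9211 none, with 34754 symbols matched through Entrez identifiers to GRCm38.p6. A gene was read from its brightest probe set. Background (46.0) was the 95th percentile of 27 bacterial control probe sets. Named genes were all members, up to 3 called genes of each other list by size of change, and the 3 genes most correlated with each called member. Uncalled genes of other lists that are named were chosen after their values were seen. Members and lists were chosen with earlier results of these data known. No label gives a batch for the pools, and p-values measure the spread between pools of 3 mice. Alternatives changed the scaling, pseudocount, filter, variance model and covariate, and left out each pool; the refits of gene means, of list counts, of correlated genes and of Mmp9 were chosen after seeing the data. The number of arrays limits precision.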

Additional observations from a re-analysis of the deposited data

Results flagged for a closer look

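In 3 of the 40 groups of 4 pools examined for the members, 1 pool lay far from the other 3; chance gives this in about 1 of 20 groups, which is 2 of 40. For Mmp7 it was saline 4, at a signal of 10014.7 against 7097.1 to 7334.8 in the other saline pools. For Mmp12 it was saline 1, at 104.3 against 22.1 to 29.1, all 3 of which are under background. For the Mmp14 probe set 1416572_at it was leptin 8, at 360.3 against 242.8 to 246.0 in the other leptin pools.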

How the results depend on the processing

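Against 5 member probe sets called, limma called 3 under quantile normalization, 3 under cyclic loess, 2 with no filter, 1 without the mean-variance trend and 0 with the actin ratio covariate, where 6 passed an unadjusted p of 0.05 in limma. Leaving out 1 pool gave 1 to 4. With arrays centred on their median the count stayed at 5, but 0 were higher and 5 lower (Mmp7 and all 4 of Timp3). Among all tested probe sets 406 were then called higher and 3586 lower. By brightest probe set, against 3 genes called, 1 was called without the trend, 0 with the actin covariate and 1 to 2 without a pool. Mmp7 was the gene called without the trend and in all 8 fits that left out a pool. The count over all probe sets was 3992 with median centring, 654 with the actin covariate and 884 to 1431 without a pool, against 1561. Mmp7, Timp2 and Timp3 kept the sign of their log2 fold change under every alternative run.

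Uncalled probe sets changed sign. Mmp2 (1439364_a_at) was at -0.16 with median centring, -0.02 with array weights and -0.14 with the actin covariate, and between -0.08 and 0.41 without a pool. Mmp3 was at -0.22 under quantile scaling, -0.20 under loess, -0.22 with median centring and -0.03 with array weights, and between -0.08 and 0.11 without a pool. Mmp14 was at -0.06 and -0.07 with median centring on 1448383_at and 1440920_at, the latter between -0.03 and 0.31 without a pool. Mmp13, under background, was at 1.78 with a pseudocount of 1 against 1.02, and neither value is read as a change. For the 28 called genes named from the other lists, the call was lost in 50 comparisons with another setting and in 40 without a pool. The cause of these changes was not tested. No paired analysis was possible because the treatments share no replicate numbers. Fits that left out a pool had 7 arrays. Dim signals limit Mmp12 and Mmp13.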
